A study of Mus musculus with 19 samples.

Results

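The genes of renal glucose transport and glucose synthesis examined here were 10 genes chosen by symbol among the 55536 genes of the deposited count table. They are the sodium-coupled carriers Slc5a1, Slc5a2, Slc5a8 and Slc5a12, the facilitative glucose carriers Slc2a1 and Slc2a2, and the gluconeogenic enzymes Pck1, G6pc, Fbp1 and Pcx. All 10 were found, and all 10 had enough counts to be tested. RNA of whole mouse kidney was sequenced in 19 libraries, which the series design divides into 4 of healthy kidneys with vehicle, 7 of UUO kidneys with vehicle and 8 of UUO kidneys with zalfermin; these groups are called healthy, vehicle and zalfermin below. UUO is the usual short form of unilateral ureteral obstruction, in which a tied ureter dams up urine in the kidney, and the series title names zalfermin as a long-acting analogue of the hormone FGF21. The labels of the single samples differ from that design in their wording: they state MASH as the condition of the UUO libraries, call the healthy ones untreated, and name the drug by a code that was taken to be zalfermin. The sources used here do not give strain, sex, age, dose, duration or time of collection. Nor do they tell whether each library is an animal of its own, so a p-value reflects the spread among these samples alone, which may be technical.

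Glucose that is filtered by the kidney is taken back by the proximal tubule. Slc5a2 encodes SGLT2, the high-capacity sodium-coupled carrier of the early proximal tubule, and Slc5a1 encodes SGLT1, the high-affinity carrier of its later part. Both draw glucose into the cell across the luminal membrane, and the facilitative carriers GLUT2 (Slc2a2) and GLUT1 (Slc2a1) let it out on the blood side. The same cells also make glucose from lactate, glutamine and glycerol. Lactate enters across the luminal membrane with sodium, through the carriers SMCT1 (Slc5a8) and SMCT2 (Slc5a12). Pyruvate carboxylase (Pcx) turns pyruvate into oxaloacetate in the mitochondria, the cytosolic phosphoenolpyruvate carboxykinase (Pck1) turns oxaloacetate into phosphoenolpyruvate, fructose bisphosphatase (Fbp1) removes a phosphate further up the pathway, and the catalytic subunit of glucose-6-phosphatase (G6pc) releases free glucose.

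Libraries held 12209122 to 14844103 counts. Levels are CPM, the count relative to the library total after TMM scaling, with factors of 0.751 to 0.843 in healthy and 1.02 to 1.11 in UUO libraries, and means are given ± SD over 4 healthy, 7 vehicle and 8 zalfermin libraries. The share of mitochondrially encoded genes ranged from 8.77% to 10.2% of counts among healthy, from 1.10% to 4.21% among vehicle and from 2.95% to 4.25% among zalfermin libraries. Vehicle replicate 6 had the lowest of these shares and, at 19788, the fewest genes detected of all libraries. Of 16 marker genes of the proximal tubule, all were detected in every group. In vehicle against healthy kidneys 16 fell, where 28.6% of all genes tested were called lower. Their summed level ranged from 24410 to 29800 CPM among healthy, from 5871 to 10190 CPM among vehicle and from 6155 to 10780 CPM among zalfermin libraries. In RNA from whole tissue, fewer proximal tubule cells and less of an RNA per cell cannot be told apart.

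**Figure D1:**
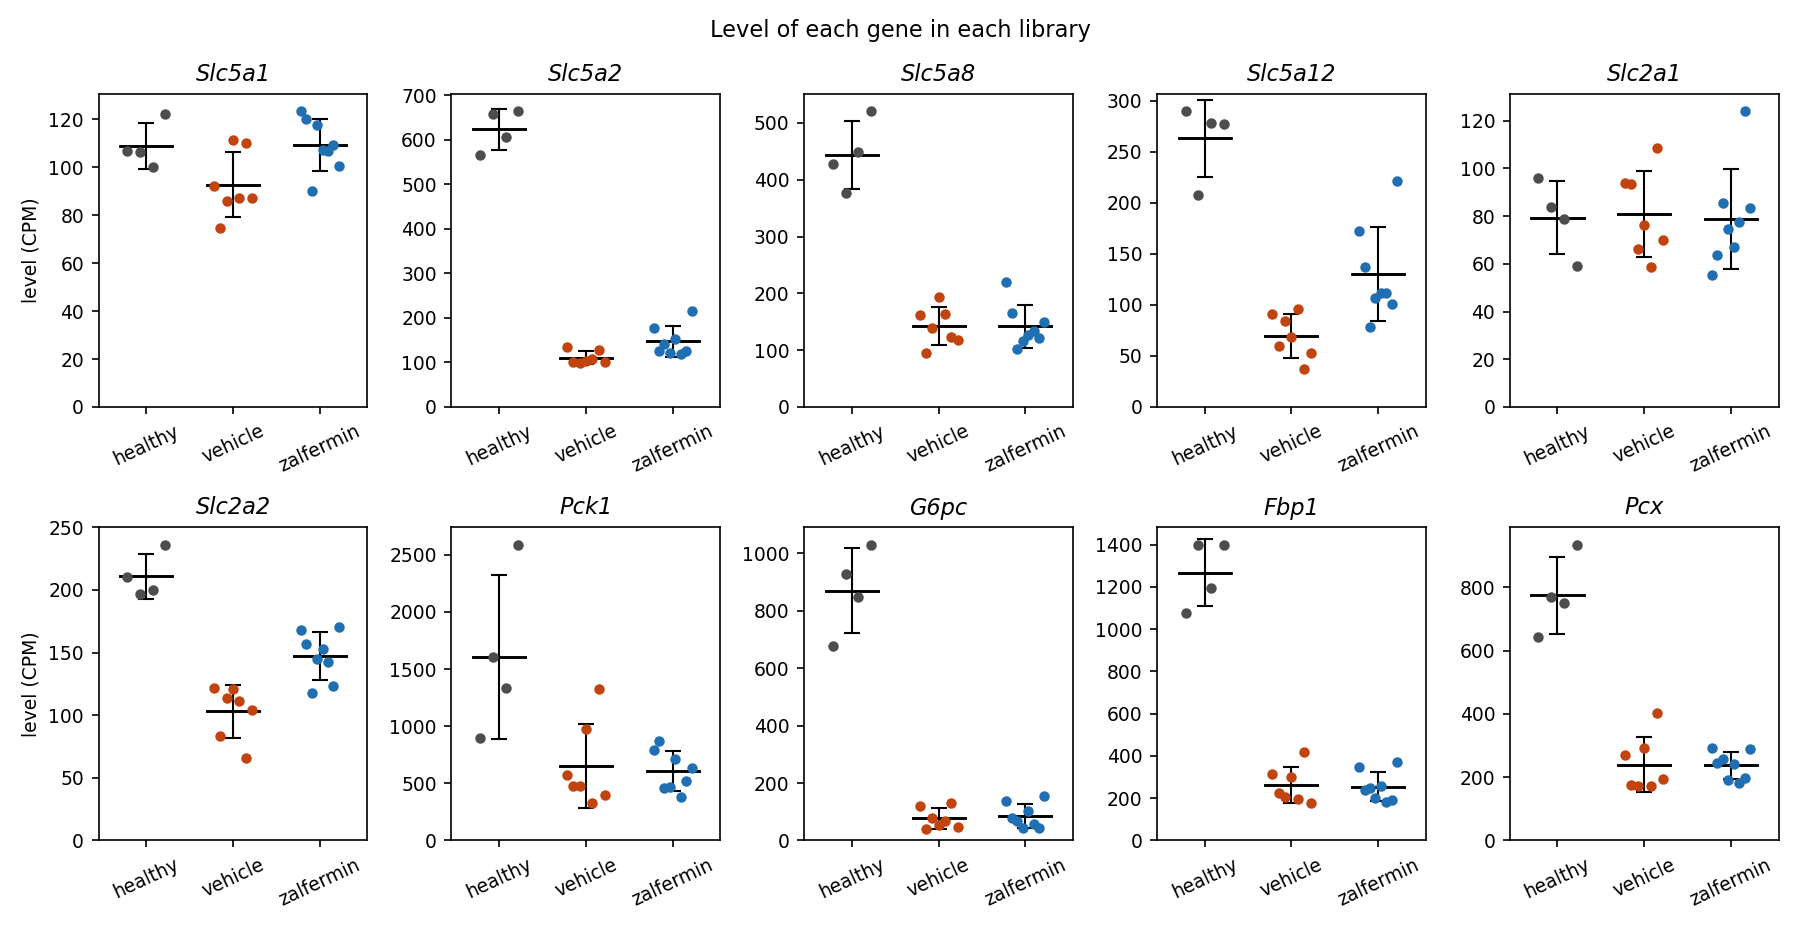
Level in CPM (vertical axes, linear and starting at 0, with a scale for each gene) of the 10 genes in each library of the 3 groups; each point is a library, lines are means and bars are SD. All healthy libraries lie above all vehicle libraries for 7 genes, as they do for 19.5% of the 16026 genes tested, whereas Slc5a1, Slc2a1 and Pck1 overlap.

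In vehicle against healthy kidneys 8 of the 10 genes fell and 0 rose, where 28.6% of the 16026 genes tested were called lower, 36.2% higher and 64.8% in either direction (edgeR quasi-likelihood test, Benjamini-Hochberg adjusted p under 0.05). The median log2 fold change of the 10 genes was -1.67, beside 0.09 over all genes tested. The falls differed in size. G6pc kept 8.81% of its healthy mean and Slc5a2 17.7%, Fbp1, Slc5a12, Pcx and Slc5a8 kept between 20.7% and 32.0%, and Pck1 and Slc2a2 kept 40.6% and 48.9%. Slc5a1, at 85.2%, and Slc2a1, at 102%, did not pass the test.

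Among the luminal glucose carriers, Slc5a2 (ENSMUSG00000030781, chromosome 7, 128265657 to 128272430 on GRCm38) stood at 567, 658, 607 and 664 CPM in the healthy libraries. The vehicle libraries ranged from 99.2 to 134 CPM, with a median of 104 CPM. Each vehicle library was therefore far under each healthy one, and the vehicle libraries lay close together, with a coefficient of variation of 13.1%. The log2 fold change was -2.50 (SE 0.14, adjusted p = 8.88e-13), a fall of 5.65-fold. Exons of Slc5a2 share 597 bases, 20.6% of its exonic length, with BC017158 on the opposite strand, and whether the counting used strand is not given in the sources used here. BC017158 itself was measured at 37.4 ± 4.81 CPM in the healthy group and 34.3 ± 3.11 CPM in the vehicle group.

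Slc5a1 (ENSMUSG00000011034, chromosome 5, 33104219 to 33162870) stood at 107, 106, 100.1 and 122 CPM in the healthy libraries. The vehicle libraries ranged from 74.6 to 111 CPM, with a median of 87.3 CPM. In 5 of 7 vehicle libraries Slc5a1 was under all healthy libraries, while replicates 4 and 6 lay among them. The log2 fold change of -0.23 (SE 0.11) missed the threshold with an adjusted p of 0.0566 in edgeR's quasi-likelihood test, and the 95% interval of the fold ran from 0.73 to 0.994. This call depended on the setting: Slc5a1 was called lower with RLE scaling (-0.31, adjusted p = 0.0103), with DESeq2 (adjusted p = 0.0102), with voom (adjusted p = 0.0156) and without vehicle replicate 6 (-0.33, adjusted p = 0.00401). It was also called lower without vehicle replicate 4 (adjusted p = 0.0204), healthy replicate 3 (adjusted p = 0.0493) or zalfermin replicate 3 (adjusted p = 0.0484).

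Both lactate carriers fell. Slc5a8 (ENSMUSG00000020062, chromosome 10, 88885992 to 88929515) went from 428, 376, 449 and 521 CPM in the healthy libraries to between 94.6 and 194 CPM in the vehicle libraries, with a median of 139 CPM. Slc5a12 (ENSMUSG00000041644, chromosome 2, 110597298 to 110647779) went from 289.7, 208, 278 and 278 CPM to between 37.5 and 96.1 CPM, with a median of 68.3 CPM. For neither gene did a vehicle library reach the lowest healthy library. On the log2 scale Slc5a8 changed by -1.64 (SE 0.18, adjusted p = 3.59e-08) and Slc5a12 by -1.91 (SE 0.24, adjusted p = 2.24e-07).

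The carriers of the blood side parted. Slc2a2 (ENSMUSG00000027690, chromosome 3, 28697903 to 28731359) stood at 211, 197, 199.8 and 236 CPM in the healthy libraries, against 65.9 to 122 CPM with a median of 111 CPM in the vehicle libraries, a log2 fold change of -1.03 (SE 0.14, adjusted p = 5.53e-07). Slc2a1 (ENSMUSG00000028645, chromosome 4, 119108711 to 119137983) stood at 96.0, 83.6, 78.6 and 59.2 CPM in the healthy libraries and at 58.6 to 108 CPM with a median of 76.4 CPM in the vehicle libraries. The Slc2a1 ranges lay over each other, with a log2 fold change of 0.03 (SE 0.19, adjusted p = 0.90) and a 95% interval of the fold from 0.777 to 1.34. The sign of this value turned with RLE scaling (-0.049), DESeq2 (-0.043) and voom (-0.12). Slc2a1 is also a carrier of endothelial cells. The summed level of 7 endothelial markers ranged from 257 to 444 CPM in healthy and from 311 to 461 CPM in vehicle libraries. The red cell markers summed to 208 to 431 CPM in healthy and 55.9 to 542 CPM in vehicle libraries, with the highest sum in vehicle replicate 6, which also had the highest vehicle level of Slc2a1. The part of other cells in the level of Slc2a1 was not tested.

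The 4 gluconeogenic enzymes all fell. G6pc (ENSMUSG00000078650, chromosome 11, 101367561 to 101377903) stood at 675, 927, 848 and 1029 CPM in the healthy libraries and at 40.4 to 131 CPM, with a median of 67.4 CPM, in the vehicle libraries. The log2 fold change of -3.50 (SE 0.34, adjusted p = 5.56e-09) is a fall of 11.4-fold, and it was the largest of the 10 genes. Fbp1 (ENSMUSG00000069805, chromosome 13, 62864753 to 62888282) stood at 1075, 1399, 1196 and 1398 CPM in the healthy libraries, against 177 to 421 CPM with a median of 225 CPM in the vehicle libraries. Pcx (ENSMUSG00000024892, chromosome 19, 4510472 to 4621752) stood at 642, 768, 752 and 934 CPM, against 171 to 402 CPM with a median of 193 CPM. Neither group reached into the other for these 3 enzymes. The log2 fold changes of Fbp1 and Pcx were -2.27 (SE 0.21, adjusted p = 2.53e-09) and -1.70 (SE 0.20, adjusted p = 1.05e-07).

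Pck1 (ENSMUSG00000027513, chromosome 2, 173153048 to 173159273) varied most from library to library of the 10 genes in healthy and in vehicle kidneys. It stood at 896, 1609, 1335 and 2588 CPM in the healthy libraries and at 572, 480.1, 478, 976, 332, 1330 and 398 CPM in vehicle replicates 1 to 7. Replicates 4 and 6 reached into the healthy range, and the other 5 lay under it. The coefficient of variation was 44.6% in healthy and 55.9% in vehicle libraries. The log2 fold change was -1.30 (SE 0.33, adjusted p = 0.0011), and leaving out each library in turn gave -1.63 to -0.97, with adjusted p between 1.96e-05 and 0.0143. Without vehicle replicate 6 the 4 enzymes fell further, with log2 fold changes of -1.63 for Pck1, -3.74 for G6pc, -2.48 for Fbp1 and -1.92 for Pcx. That library had the highest vehicle level of all 4 enzymes and also the highest vehicle sum of proximal tubule markers, 10190 CPM against a vehicle median of 6431 CPM; the part of this in the enzyme levels was not tested.

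Pck1 and G6pc are also major genes of the liver. The 5 hepatocyte markers summed to 144 to 215 CPM in healthy and 47.9 to 102 CPM in vehicle libraries. Of these markers 4 fell and 1 rose in vehicle against healthy kidneys, where 28.6% of all genes tested were called lower and 36.2% higher. Alb, the albumin gene, went from 16.9 ± 17.3 to 1.01 ± 0.714 CPM and Ttr, the transthyretin gene, from 115 ± 10.8 to 19.9 ± 12.6 CPM, whereas Fgb, a fibrinogen gene, rose from 2.13 ± 1.01 to 31.1 ± 16.2 CPM. Pck1 was at 1607 ± 717 and 652 ± 365 CPM in the same libraries. The part of hepatocyte RNA in the levels of Pck1 and G6pc was not tested.

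The promoters of Pck1 and G6pc, enzymes of a single pathway, are shown as a description of their letters. Whether promoters bear on the unequal falls of these genes was not tested. The stretches end before the annotated start and come from RefSeq on GRCm38.p6, both on the plus strand, chr2:173152823-173153047 for Pck1 and chr11:101367466-101367560 for G6pc. Capitals mark CGTCA, the half-site of cyclic AMP response elements. Other forms of the element were not searched. The G6pc stretch has 95 bases, from base -250 to base -156 relative to the RefSeq start, against 225 bases for Pck1. The G6pc stretch holds no match and has no capitals, and bases nearer the start are not shown.
Pck1: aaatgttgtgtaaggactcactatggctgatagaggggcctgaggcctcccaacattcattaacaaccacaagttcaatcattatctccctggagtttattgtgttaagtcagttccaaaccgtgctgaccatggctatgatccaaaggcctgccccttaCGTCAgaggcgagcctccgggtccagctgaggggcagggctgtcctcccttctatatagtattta
G6pc: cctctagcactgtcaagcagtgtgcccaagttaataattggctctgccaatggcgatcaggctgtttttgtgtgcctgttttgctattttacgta
Promoters of 8 of the 10 genes were matched in the RefSeq table, each from 250 bases before to 50 bases after the start, and 2 motifs were searched on both strands. CGTCA was found for Pck1 alone of the 8 genes and in 20.8% of all 32851 promoters. ACGTG, the core of hypoxia and carbohydrate response elements, was found for 3 genes, Slc5a1, Slc2a1 and Pcx, and in 19.6% of all promoters. A match describes the letters and is not evidence of a bound site.

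**Figure D2:**
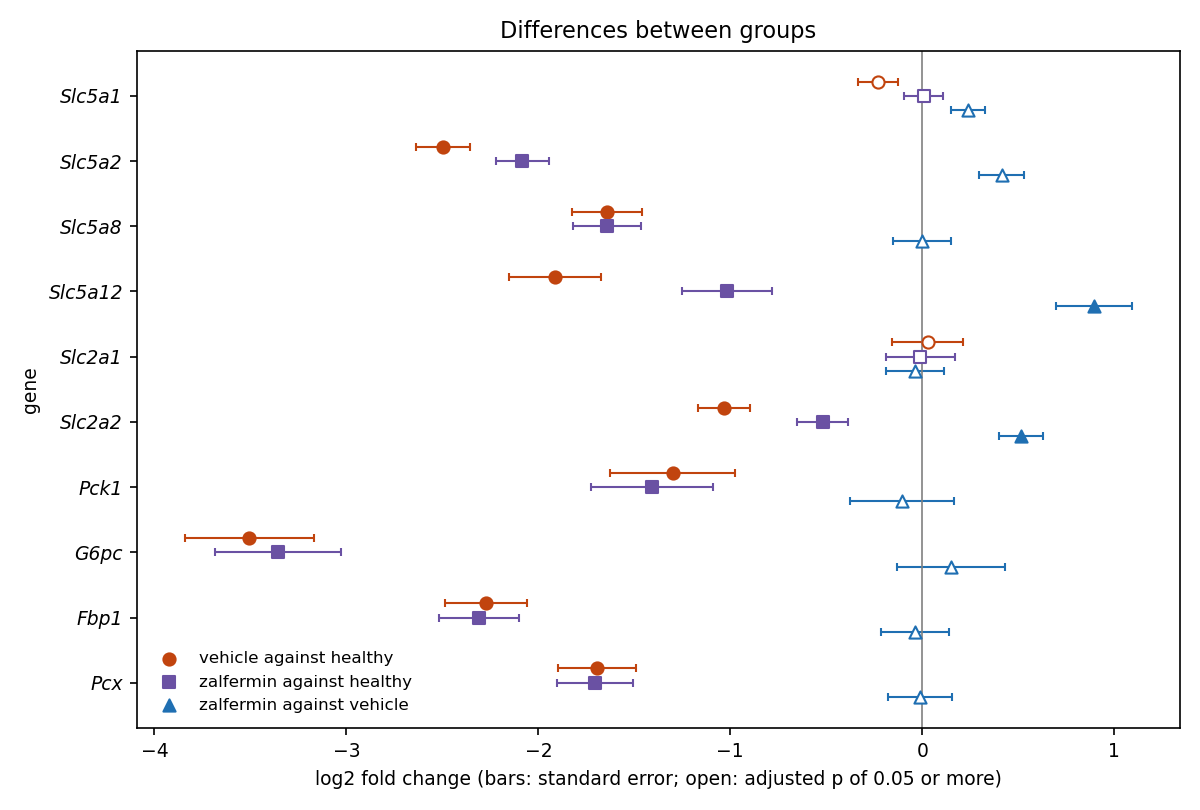
Log2 fold change (horizontal axis) of each of the 10 genes (vertical axis) in the 3 comparisons; points are edgeR estimates, bars are standard errors and open symbols have an adjusted p of 0.05 or more. For vehicle against healthy 8 filled points lie left of 0, and for zalfermin against vehicle the filled points are Slc5a12 at 0.90 and Slc2a2 at 0.51.

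The 10 genes did not all move as far as other genes of the proximal tubule. The mean log2 level of the 16 proximal tubule markers, taken as log2 of CPM plus 0.5, was 1.98 lower in vehicle than in healthy libraries. Set against that mean within each library, G6pc lay 1.63 lower and Slc5a2 0.52 lower in vehicle than in healthy libraries, and for both genes the groups did not overlap. Slc5a1 lay 1.74 higher and Slc2a1 2.0 higher against the markers, again with no overlap. Because the markers themselves fell, a gene of unchanged level would lie 1.98 higher on this scale. The median log2 fold change over all genes tested was 0.09, so these 2 values restate that Slc5a1 and Slc2a1 fell little or not at all. Slc5a12, Slc5a8 and Pcx stayed within 0.02, 0.32 and 0.23 of the markers, and Fbp1 lay 0.34 lower; their groups overlapped. Slc2a2, at 0.93 higher, and Pck1, at 0.62 higher, also overlapped. These differences are descriptions, with no test. The share of all genes tested without overlap on this scale was not counted.

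**Figure D3:**
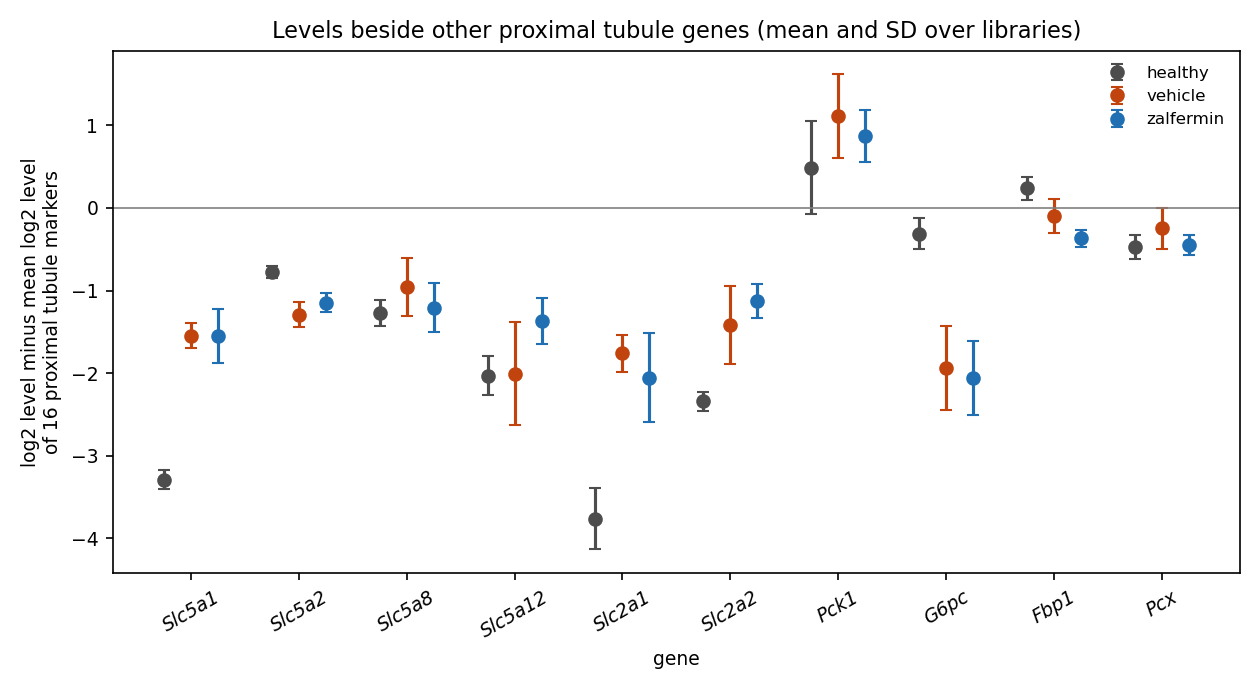
Log2 level of each of the 10 genes (horizontal axis) minus the mean log2 level of 16 proximal tubule markers of the same library (vertical axis), as mean and SD over the libraries of each group. Slc5a1 and Slc2a1 sit higher in both UUO groups than in healthy libraries, as a gene of unchanged level would, and G6pc and Slc5a2 sit lower.

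Ratios of genes within a library do not depend on how libraries are scaled against each other, and 4 pairs were compared over 3 comparisons by two-sided exact permutation tests, adjusted over these 12 tests. The ratio of Slc5a1 to Slc5a2 counts was 0.162 to 0.188 in healthy libraries and 0.689 to 1.07 in vehicle libraries. The high-affinity carrier thus had far fewer counts than the high-capacity one in each healthy library, and from somewhat fewer to slightly more in the vehicle libraries. The difference was 2.26 on the log2 scale, 4.80-fold, with p = 0.00606 in the exact permutation test (adjusted p = 0.0104), the smallest p that 7 against 4 libraries allow. Per exonic base the same ratio went from 0.114 to 0.133 in healthy to 0.487 to 0.757 in vehicle libraries, so Slc5a2 stayed the more abundant RNA.

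For the genes of the blood-side carriers the ratio in whole-tissue RNA rose too, with Slc2a2 called lower and Slc2a1 not called. The ratio of Slc2a1 to Slc2a2 counts was 0.251 to 0.456 in healthy and 0.527 to 1.64 in vehicle libraries, with no overlap, a difference of 1.08 on the log2 scale (exact permutation p = 0.00606, adjusted p = 0.0104). The ratio of Pck1 to G6pc counts was 1.33 to 2.51 in healthy and 4.76 to 18 in vehicle libraries. These ranges were also apart, with a difference of 2.26 (exact permutation p = 0.00606, adjusted p = 0.0104). The ratio of the lactate carriers did not pass the test. Slc5a8 to Slc5a12 counts stood at 1.48 to 1.88 in healthy and 1.59 to 3.29 in vehicle libraries, a difference of 0.30 (exact permutation p = 0.236, adjusted p = 0.284).

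**Figure D4:**
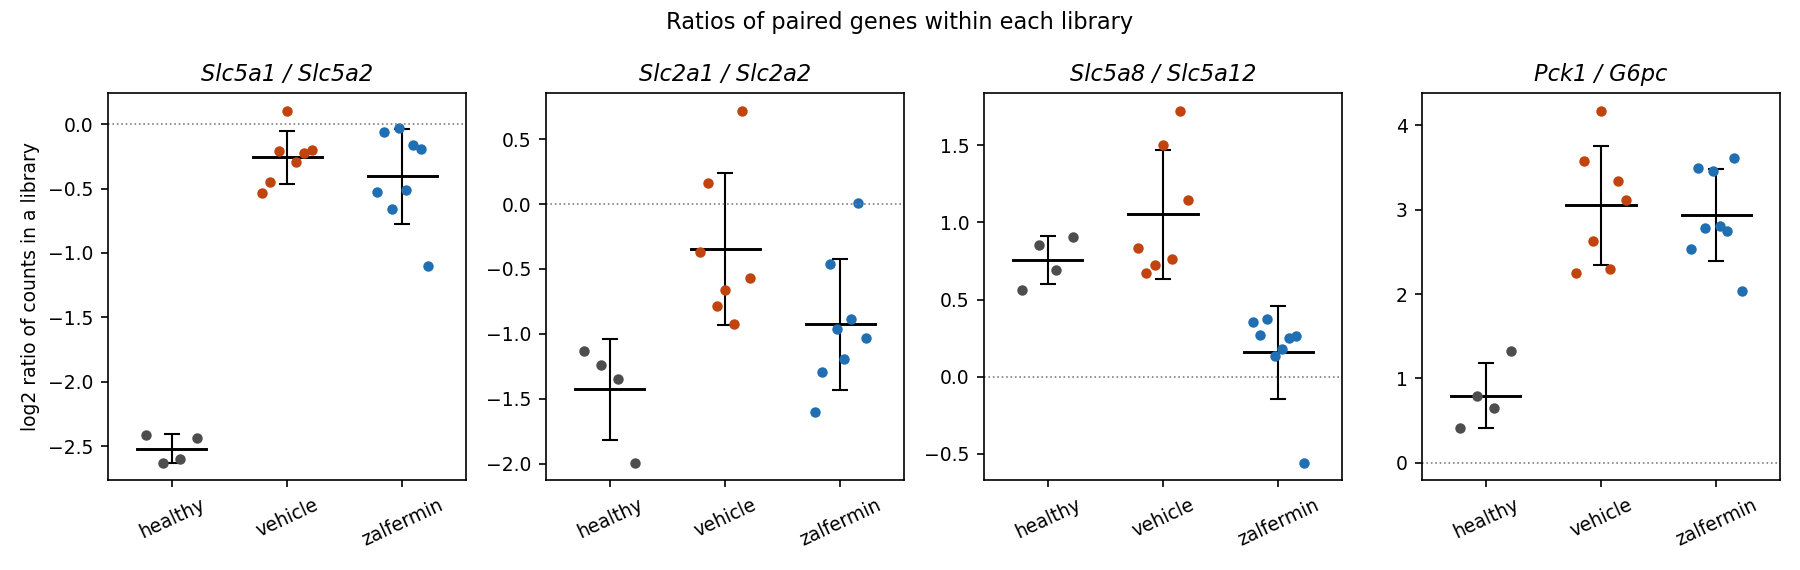
Log2 ratio of counts (vertical axis, 0.5 added to each count) for 4 pairs of genes in each library of the 3 groups; points are libraries, lines are means, bars are SD, and the dotted line marks equal counts. The healthy libraries stand apart from the vehicle libraries for 3 pairs, and the zalfermin libraries stand apart from both other groups for Slc5a8 to Slc5a12.

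Zalfermin against vehicle asked what the drug changed in obstructed kidneys. Slc5a12 and Slc2a2 rose, and the other 8 genes did not pass the test: 2 of 10 were called higher and 0 lower, where 0.867% of the 16026 genes tested were called higher, 0.942% lower and 1.81% in either direction. These shares moved with single libraries: the 151 genes called lower and 139 called higher became 275 and 242 without vehicle replicate 6 and 86 and 71 without vehicle replicate 7. The median log2 fold change of the 10 genes was 0.08, beside 0.01 over all genes tested. None of the 4 gluconeogenic enzymes was called, and their log2 fold changes lay between -0.11 and 0.15.

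Slc5a12, the low-affinity lactate carrier, stood at 90.9, 59.4, 83.9, 68.3, 96.1, 37.5 and 53.2 CPM in vehicle replicates 1 to 7. Zalfermin replicates 1 to 8 stood at 173, 137, 78.7, 107, 112, 112, 101 and 221 CPM. In 7 of 8 zalfermin libraries the level was above all vehicle libraries, and in 8 of 8 it was above the vehicle median; replicate 3 lay inside the vehicle range. The mean rose from 69.9 ± 21.5 to 130.1 ± 46.1 CPM, a log2 fold change of 0.90 (SE 0.20, adjusted p = 0.0231), or 1.86-fold with a 95% interval from 1.39 to 2.49. At 49.4% of the healthy mean, zalfermin kidneys were still under healthy ones. The call was lost without vehicle replicate 2 (0.86, adjusted p = 0.0539) or vehicle replicate 7 (0.84, adjusted p = 0.0573), and it was kept without zalfermin replicate 8, the highest library (0.74, adjusted p = 0.0401), and without vehicle replicate 6, the lowest (0.77, adjusted p = 0.0242).

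Slc2a2, the exit carrier for glucose, stood at 122, 83.5, 114, 121, 111, 65.9 and 104 CPM in vehicle replicates 1 to 7 and at 168, 157, 118, 145, 153, 143, 123 and 171 CPM in zalfermin replicates 1 to 8. Again 7 of 8 zalfermin libraries lay above all vehicle libraries, with replicate 3 as the exception. The mean rose from 103 ± 20.9 to 147 ± 19.2 CPM, a log2 fold change of 0.51 (SE 0.11, adjusted p = 0.0212), or 1.43-fold with a 95% interval from 1.21 to 1.69. Zalfermin kidneys reached 69.8% of the healthy mean. The call was lost without vehicle replicate 2 (0.47, adjusted p = 0.0521) and kept in each of the other 18 fits that left out a library.

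The luminal glucose carriers lay higher in zalfermin libraries without passing the test. Slc5a2 ranged from 119.7 to 216 CPM with a median of 134 CPM, against 99.2 to 134 CPM and a median of 104 CPM in vehicle libraries, a log2 fold change of 0.41 (SE 0.12, adjusted p = 0.0713) with a 95% interval of the fold from 1.12 to 1.58. It was called higher by DESeq2 (adjusted p = 0.0374), by voom (adjusted p = 0.0192), and by edgeR without vehicle replicate 6 (adjusted p = 0.0426) or zalfermin replicate 6 (adjusted p = 0.0464). Slc5a1 ranged from 90.2 to 123 CPM with a median of 108 CPM, against 74.6 to 111 CPM in vehicle libraries, a log2 fold change of 0.24 (SE 0.09, adjusted p = 0.179); all 8 zalfermin libraries were above the vehicle median of 87.3 CPM. Of the tools run, voom alone called it higher (adjusted p = 0.0146). With voom, 4 of the 10 genes were called higher, where 3.13% of all genes tested were.

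The remaining genes showed wide overlap. Slc5a8 stood at 142 ± 33.5 CPM in vehicle and 142 ± 37.4 CPM in zalfermin kidneys, a log2 fold change of 0.00024 (SE 0.15, adjusted p = 0.9999) with a 95% interval of the fold from 0.801 to 1.25. Slc2a1 was at 81.0 ± 18 and 78.8 ± 20.9 CPM (log2 fold change -0.04, adjusted p = 0.93), and its highest level, 124 CPM in zalfermin replicate 7, stood apart from the other 7 zalfermin libraries. Pck1 ranged from 383 to 875 CPM in zalfermin libraries, G6pc from 42.4 to 155 CPM, Fbp1 from 184 to 369 CPM and Pcx from 181 to 291 CPM. Each of these ranges overlapped with that of the vehicle libraries. The 95% intervals of the fold were 0.625 to 1.38 for Pck1, 0.734 to 1.68 for G6pc, 0.752 to 1.26 for Fbp1 and 0.777 to 1.27 for Pcx. Without vehicle replicate 6 the log2 fold changes of Pck1, G6pc, Fbp1 and Pcx were 0.16, 0.31, 0.10 and 0.15, with adjusted p between 0.627 and 0.81.

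The lactate carriers, which both fell with obstruction, parted under zalfermin. The ratio of Slc5a8 to Slc5a12 counts was 1.59 to 3.29 in vehicle libraries and 0.679 to 1.30 in zalfermin libraries, with no overlap. The difference was -0.89 on the log2 scale, 1.86-fold, with p = 0.000311 in the exact permutation test (adjusted p = 0.00373), the smallest p that 8 against 7 libraries allow. Zalfermin libraries were also under all healthy libraries for this ratio (difference -0.60, exact permutation p = 0.00404, adjusted p = 0.0104), which stood at 1.48 to 1.88. Zalfermin replicate 8, with the lowest ratio, did not decide this: without it the difference from vehicle was -0.79 (exact permutation test, adjusted p = 0.00699). The other ratios did not pass the test against vehicle. Slc5a1 to Slc5a2 differed by -0.15 (exact permutation adjusted p = 0.407) and Pck1 to G6pc by -0.12 (adjusted p = 0.711). Slc2a1 to Slc2a2 differed by -0.58 (exact permutation p = 0.0625, adjusted p = 0.0937), and without zalfermin replicate 7 by -0.71 (adjusted p = 0.0175).

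Markers of the proximal tubule lay slightly higher on average, though not all of them, in zalfermin than in vehicle kidneys. That shift stands beside the rise of Slc5a12 and Slc2a2. The mean log2 level of the 16 markers differed by 0.25, with 8 of 8 zalfermin libraries above the vehicle median and overlapping groups. Mean levels were lower instead for Ggt1 (463 ± 194 to 334 ± 45.1 CPM), Slc22a6 (288 ± 147 to 216 ± 64.15 CPM) and Slc34a1 (1369 ± 531 to 1323 ± 364 CPM). They were higher for the other markers, though Aqp1 was nearly level (578 ± 152 to 579 ± 121 CPM). Over all genes tested, 0.867% were called higher and 0.942% lower. Of the 16 markers 2 were called higher: Slc6a19, a neutral amino acid carrier of the early proximal tubule (52.3 ± 18.4 to 113 ± 38.6 CPM, a log2 change of 1.11, adjusted p = 0.00689), and Slc7a7, a basolateral amino acid carrier (75.7 ± 9.71 to 109.5 ± 12.7 CPM, a log2 change of 0.53, adjusted p = 0.00162). Of 6 markers of the last proximal segment 1 was called lower, Cyp7b1 (87.9 ± 26.0 to 46.8 ± 21.4 CPM, a log2 change of -0.91, adjusted p = 0.0306), and its call was lost in 7 of the 19 fits that left out a library, those without vehicle replicate 1, 2 or 4 or zalfermin replicate 2, 4, 5 or 7 (adjusted p up to 0.0691). The summed level of these 6 markers was 1848 to 3894 CPM in vehicle and 1547 to 2537 CPM in zalfermin libraries. Atp11a had the highest level of them in both groups (1325 ± 378 to 1030 ± 170 CPM). Its mean and those of Slc7a13 and Acy3 were lower without being called. Mean levels were instead higher for Slc6a18 (372 ± 56.6 to 418 ± 43.2 CPM) and nearly level for Slc22a13 (26.9 to 27.25 CPM), neither of them called. Set against the 16 markers within each library, Slc5a12 was 0.64 higher in zalfermin than in vehicle libraries, with 8 of 8 above the vehicle median, Slc2a2 was 0.28 higher with 6 of 8, and Fbp1 was 0.27 lower with 0 of 8 above it. Slc2a1, Slc5a8, Pck1, Pcx and G6pc were lower too, with differences of -0.29, -0.25, -0.24, -0.20 and -0.12. Slc5a2 differed by 0.14 and Slc5a1 by -0.0036. For all 10 genes the groups overlapped on this scale. The part of the share of tubule RNA in these differences was not tested.

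Zalfermin and vehicle kidneys were also each set against the same 4 healthy libraries, so those comparisons are not independent. In zalfermin against healthy kidneys 8 of 10 genes fell and 0 rose, where 27.0% of genes tested were called lower, 37.3% higher and 64.3% in either direction. G6pc was lower by a log2 fold change of -3.35 (adjusted p = 5.29e-09), Fbp1 by -2.31 (adjusted p = 1.14e-09), Slc5a2 by -2.08 (adjusted p = 8.66e-12), Pcx by -1.70 (adjusted p = 5.81e-08) and Slc5a8 by -1.64 (adjusted p = 2.20e-08). Pck1 differed by -1.41 (adjusted p = 0.000379), and here no zalfermin library reached the healthy range. Slc5a12 differed by -1.02 (adjusted p = 0.00046), with zalfermin replicate 8 inside the healthy range, and Slc2a2 by -0.52 (adjusted p = 0.00154), with no overlap. Slc5a1 and Slc2a1 were not called, with log2 fold changes of 0.01 (95% interval of the fold 0.864 to 1.17) and -0.01 (0.761 to 1.30) whose sign turned with some settings. The ratio of Slc5a1 to Slc5a2 counts, at 0.466 to 0.978, and that of Pck1 to G6pc, at 4.12 to 12.2, stayed apart from healthy libraries, with differences of 2.11 and 2.14 on the log2 scale (exact permutation p = 0.00404, adjusted p = 0.0104 for both). The ratio of Slc2a1 to Slc2a2, at 0.329 to 1.01, overlapped with healthy libraries (difference 0.50, exact permutation p = 0.113, adjusted p = 0.151).

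The order of the 10 genes changed between healthy and obstructed kidneys. Levels between genes were compared as CPM per kilobase of exon. In healthy kidneys Fbp1 was highest at 744 CPM per kilobase, followed by Pck1 at 469, G6pc at 360.3, Slc5a2 at 216 and Pcx at 163. The carriers Slc5a8 at 83.2, Slc5a12 at 64.8, Slc2a2 at 36.6, Slc5a1 at 26.5 and Slc2a1 at 22.6 CPM per kilobase followed. Neighbours in this order whose libraries overlapped were Fbp1 and Pck1, Pck1 and G6pc, Slc5a2 and Pcx, Slc5a8 and Slc5a12, and Slc5a1 and Slc2a1. In vehicle kidneys Pck1, at 190.2 CPM per kilobase, and Fbp1, at 154, led, and G6pc stood at 31.7, under Slc5a2 at 38.2. The vehicle order ended with Slc5a12 at 17.2, and only Fbp1 and Pcx, at 50.3, were neighbours that did not overlap. In zalfermin kidneys Slc5a12 stood at 32.0 CPM per kilobase, above Slc5a1, Slc5a8, Slc2a2 and Slc2a1, which lay between 22.5 and 26.6; only Fbp1, at 150.1, and Slc5a2, at 50.9, were neighbours without overlap.

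Of 64 further genes of sugar transport, glucose synthesis and their control, 62 were tested; Slc5a4a and Slc5a4b had too few counts. In vehicle against healthy kidneys 42 fell, 8 rose and 12 were not called, with a median log2 fold change of -0.88. Over all 16026 genes tested, 28.6% were called lower and 36.2% higher. These shares apply beside each list of this comparison. All 5 tested genes of the list of other sodium-sugar carriers fell, though not every gene of that list is itself a carrier. Among them were Slc5a9 (-1.50), a mannose and fructose carrier, and Slc5a11 (-1.64), a carrier of inositol. Among 10 facilitative carriers 5 fell, with the smallest p for the insulin-responsive Slc2a4 (45.7 ± 3.82 to 9.12 ± 3.27 CPM, -2.32) and Slc2a12 (-1.98). The 4 that rose were Slc2a6 (0.524 ± 0.276 to 3.89 ± 0.547 CPM), Slc2a10 (0.813 ± 0.45 to 3.40 ± 0.567 CPM), Slc2a3 (1.56 ± 0.515 to 4.09 ± 0.952 CPM) and Slc50a1 (17.1 ± 2.89 to 25.9 ± 3.53 CPM).

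Genes that feed the pathway fell with it. Of 8 carriers and enzymes of lactate and pyruvate 6 fell, with the smallest p for both subunits of the mitochondrial pyruvate carrier, Mpc1 (104 ± 13 to 33.0 ± 4.46 CPM, -1.66) and Mpc2 (371 ± 48.6 to 141 ± 18.2 CPM, -1.40). The largest fall of this list was that of Slc16a7, a monocarboxylate carrier, from 286 ± 57.5 to 47.8 ± 16.3 CPM (-2.58). Slc16a3, a lactate exporter of glycolytic cells, rose from 1.24 ± 0.274 to 6.27 ± 1.65 CPM. Of 13 other gluconeogenic enzymes and shuttles 10 fell, with the smallest p for the malate dehydrogenase gene Mdh1 (-1.76) and the aspartate-glutamate carrier gene Slc25a13 (-1.34). Pck2, the mitochondrial form of the Pck1 enzyme, rose from 20.7 ± 2.04 to 52.5 ± 6.22 CPM with no overlap (1.34, adjusted p = 4.00e-10). Of 10 genes for the entry of glutamine, glycerol and fructose 8 fell, including sorbitol dehydrogenase Sord (-2.19) and glycerol kinase Gk (-2.02).

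Of 16 regulators 8 fell and 2 rose in vehicle against healthy kidneys, where 28.6% of all genes tested were called lower and 36.2% higher. Hnf4a fell from 1129 ± 162 to 490.3 ± 103 CPM (-1.20, adjusted p = 6.70e-08), the coactivator gene Ppargc1a from 105 ± 17.8 to 48.8 ± 9.02 CPM (-1.10, adjusted p = 2.05e-07) and the carbohydrate response factor gene Mlxipl from 169 ± 43.5 to 69.1 ± 9.97 CPM (-1.29). Cebpb rose from 10.2 ± 3.35 to 27 ± 8.68 CPM (1.41, adjusted p = 7.22e-06). Creb1 was called higher (0.49, adjusted p = 0.0301), a call lost with RLE scaling (0.42, adjusted p = 0.0649), with DESeq2 (adjusted p = 0.0644), in a fit of the 2 groups alone (adjusted p = 0.0772) and in 4 of the 19 fits that left out a library, those without healthy replicate 2 (adjusted p = 0.113), healthy replicate 3 (adjusted p = 0.0555), vehicle replicate 4 (adjusted p = 0.0634) or vehicle replicate 5 (adjusted p = 0.0553).

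Under zalfermin 4 of the 62 genes rose against vehicle, 0 fell and 58 were not called. Over all genes tested, edgeR called 0.867% higher and 0.942% lower. Slc2a9, a urate and hexose carrier, rose from 13.9 ± 1.29 to 21.6 ± 5.29 CPM (0.64, SE 0.13, adjusted p = 0.0105). Foxo3, a forkhead factor restrained by insulin signalling, rose from 100 ± 10.2 to 131 ± 13 CPM (0.39, adjusted p = 0.00895), and Insr, the insulin receptor gene, from 105 ± 13.3 to 135 ± 10.9 CPM (0.37, adjusted p = 0.0301). For Foxo3 and Insr no zalfermin library overlapped with a vehicle library. The share of all genes tested without such overlap was not counted in this comparison. Fbp2, the muscle-type fructose bisphosphatase gene, rose from 16.3 ± 3.12 to 23.3 ± 4.08 CPM (0.51, adjusted p = 0.0374). The calls of Slc2a9 and Foxo3 were kept in all 19 fits that left out a library. The call of Insr was lost in 5 of them, without vehicle replicate 2 or 7 or zalfermin replicate 1, 2 or 4 (adjusted p up to 0.073), and that of Fbp2 in 10 of them, without vehicle replicate 1, 3, 4, 5 or 7 or zalfermin replicate 2, 4, 5, 7 or 8 (adjusted p up to 0.0849). Fbp2 also missed the threshold with upper-quartile scaling (adjusted p = 0.0513) and in the fit of 2 groups (adjusted p = 0.0525). DESeq2 called 7 of the genes, all higher, where it called 1.53% of all genes higher and 1.99% lower. With voom 12 were called higher and 1 lower, where 3.13% and 4.03% of all genes were.

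Hnf4a and Ppargc1a were not called under zalfermin. Hnf4a was at 509 ± 65.1 CPM (0.05, adjusted p = 0.859). Ppargc1a was at 64.6 ± 9.45 CPM against 48.8 ± 9.02 CPM in vehicle kidneys (0.41, adjusted p = 0.0692), and it was called higher by DESeq2 (adjusted p = 0.0438) and by edgeR without vehicle replicate 1 (adjusted p = 0.0404) or zalfermin replicate 6 (adjusted p = 0.044). Other genes with the smallest p of their lists were the inositol carrier Slc5a3 (0.39, adjusted p = 0.0814), Slc5a11 (0.27, adjusted p = 0.322), the fructose carrier Slc2a5 (0.59, adjusted p = 0.232), Slc16a1 (-0.23, adjusted p = 0.302) and Slc16a7 (0.38, adjusted p = 0.345), both monocarboxylate carriers. Slc25a13 (0.30, adjusted p = 0.0973) and Glud1 (0.15, adjusted p = 0.197) likewise missed the threshold. Some of these calls depended on the setting. Voom called Slc5a3 (adjusted p = 0.0364), Slc5a11 (0.03), Slc25a13 (0.0231) and Glud1 (0.0421) higher and Slc16a1 (0.03575) lower. DESeq2 called Slc5a3 higher (adjusted p = 0.0462), and edgeR called Slc25a13 higher without vehicle replicate 4 (adjusted p = 0.0288).

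In zalfermin against healthy kidneys 39 of the 62 genes fell and 12 rose, where 27.0% of all genes tested were called lower and 37.3% higher. The fallen genes with the smallest p were Slc5a9 (-1.32), Slc5a11 (-1.37), Slc2a4 (-2.12), Slc2a12 (-1.68), Mpc1 (-1.62), Mpc2 (-1.25), Mdh1 (-1.68), Sord (-2.12), the ketohexokinase gene Khk (-2.22), Mlxipl (-1.23) and Hnf4a (-1.15). Ppargc1a (-0.70) was also called lower. Among the genes that rose were Slc2a3 (1.49), Slc2a6 (3.0), Slc2a10 (1.53), Slc50a1 (0.55), Slc16a3 (2.58), Pck2 (1.32), Fbp2 (0.65), Foxo3 (0.44), Creb1 (0.58), Cebpb (0.88) and Hif1a (0.47). Of these, the calls of Hif1a and Creb1 depended on the setting: RLE scaling gave Hif1a an adjusted p of 0.0519, and without healthy replicate 2 Hif1a (adjusted p = 0.0729) and Creb1 (adjusted p = 0.0508) were not called. Slc16a3 varied widely among zalfermin libraries, with a median of 4.55 CPM and a highest level of 24.0 CPM. Its log2 fold change ran from 2.04 to 2.69 when each library was left out, and the call was kept.

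The genes whose profile over the 19 libraries was most like that of each gene were sought among 11656 tested genes. These were genes whose mean reached 5 CPM, and genes with a provisional or clone-based symbol were left out. Likeness was measured by the root mean square difference of log2 levels after centring each gene on its own mean. The distances were 0.12 to Lpin2 and 0.12 to Tbc1d1 for Slc5a1, and 0.15 to Kmo and 0.18 to Oxct1 for Slc5a2. For the lactate carriers they were 0.12 to Hykk and 0.19 to Ksr2 for Slc5a8, and 0.26 to Sult1d1 and 0.31 to Xpnpep2 for Slc5a12. The blood-side carriers differed: Slc2a2 lay 0.12 from Slc4a4, the basolateral bicarbonate carrier gene, and 0.14 from Prkaa2, whereas Slc2a1 lay 0.18 from Pkm, the pyruvate kinase gene of glycolysis, and 0.21 from Tbcc. Among the enzymes, Fbp1 lay 0.13 from Slc34a1, the phosphate carrier gene, and 0.13 from Slc6a20b, Pcx 0.11 from Tcn2 and 0.15 from Sardh, Pck1 0.23 from Slc25a42 and 0.27 from Slc13a3, and G6pc 0.26 from Ces1e and 0.39 from Ces1d. The median distance to all these genes was 0.35 for Slc5a1 and 0.43 for Slc2a1, which varied little between groups, but 1.60 for G6pc, so the distances of different genes cannot be ranked against each other.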

How the data were processed

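Raw read counts per gene (whole numbers, not normalized) were deposited by the authors for 19 libraries of whole mouse kidney. Per the labels' protocols, total RNA was purified with NucleoSpin kits, made into directional libraries and sequenced on a NextSeq. Per the submitters' processing notes, STAR 2.7.0f and GRCm38 were used. How reads were counted, with which annotation and with or without strand, is not given in the sources used here. Coordinates and exon lengths came from GENCODE M21, which holds 55450 of the 55536 gene identifiers.

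Genes were kept with filterByExpr (minimum count 10, minimum total 15), which left 16026. Counts were scaled by TMM and tested in a single edgeR 4.0.16 quasi-likelihood fit of 3 groups (R 4.3.3), with 16 residual degrees of freedom, Benjamini-Hochberg adjustment over all tested genes and a threshold of 0.05. Intervals of a fold are 95% intervals from its standard error. Ratios of counts, with 0.5 added to each, were compared by exact permutation (scipy 1.17.1). Totals of 12209122 to 14844103 counts left at least 560 counts for each of the 10 genes in every library. No libraries of a group agreed within sampling noise (chi-square per degree of freedom of at least 5.89).

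The 10 genes, 6 lists of pathway genes and 10 lists of cell markers were chosen with earlier results of these data known. Named were the 10 genes, the pathway genes called against the majority of their list, the 2 with the smallest p in each list and comparison, Hnf4a and Ppargc1a, and the 2 genes most alike in profile to each of the 10; a few genes chosen this way are counted but not reported here by name. As alternatives, edgeR was run with upper-quartile or RLE scaling, unfiltered, filtered at 1 CPM in 10 libraries, robustly, on the 2 groups of a comparison, and without each library. DESeq2 1.42.0 and voom with quality weights (limma 3.58.1) replaced it in turn, and ratios were taken without an added count.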

Additional observations from a re-analysis of the deposited data

Results flagged for a closer look

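Of 42 groups of values checked, 3 held a library that stood apart from the others of its group by Dixon's test at the 95% level, which chance does in about 1 of 20 groups. In healthy replicate 2 Slc5a12 was at 208 CPM, while the other 3 healthy libraries lay at 278 to 289.7 CPM. In zalfermin replicate 7 Slc2a1 was at 124 CPM, while the other 7 zalfermin libraries reached at most 85.6 CPM. That library also held the highest zalfermin sums of adipocyte markers, 245.5 CPM against a median of 43.9 CPM, and of red cell markers, 203 CPM against a median of 80.9 CPM, and the part of this in the level of Slc2a1 was not tested. In zalfermin replicate 8 the log2 ratio of Slc5a8 to Slc5a12 was -0.56, while the other 7 zalfermin libraries were all above 0.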

How the results depend on the processing

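Vehicle against healthy and zalfermin against healthy gave the same direction and call for the 8 called genes under every alternative run. No paired analysis was possible because the sample labels state no pairing between groups. Each sample title opens with a number of its own, and the replicate numbers used here follow the order of the samples within a group. For zalfermin against vehicle, the number of the 10 genes called higher was 4 with voom and 0 to 3 when each library was left out, 0 without vehicle replicate 2 and 1 without vehicle replicate 7. Pathway genes called were 7 with DESeq2, 13 with voom and 2 to 6 when each library was left out. Over all genes, DESeq2 called 333 lower and 255 higher and voom 646 and 502, against 151 and 139 with edgeR; upper-quartile scaling gave 191 and 105. With a library left out they ran from 73 to 275 lower and 71 to 242 higher: 97 and 82 without vehicle replicate 2, 275 and 242 without vehicle replicate 6, 86 and 71 without vehicle replicate 7, 78 and 75 without zalfermin replicate 2, 79 and 83 without zalfermin replicate 4, and 73 and 82 without zalfermin replicate 5. The difference of the Slc2a1 to Slc2a2 ratio ran from -0.71 to -0.40 and that of Pck1 to G6pc from -0.25 to 0.065 when each library was left out. The cause was not tested.

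Signs turned only for values that were not called. Slc2a1 in vehicle against healthy was -0.049 (RLE), -0.043 (DESeq2) and -0.12 (voom), and -0.11 to 0.13 over the libraries left out. Slc5a8 under zalfermin against vehicle was -0.014 (RLE), -0.029 (upper quartile), -0.014 (DESeq2), -0.10 (voom), -0.0029 (1 CPM filter) and -0.011 (2 groups), and -0.12 to 0.091. With voom Slc2a1 was 0.093, Pck1 0.24, Fbp1 0.098 and Pcx 0.18; over the libraries left out they ran from -0.16 to 0.032, -0.22 to 0.16, -0.13 to 0.10 and -0.077 to 0.15, and G6pc from -0.030 to 0.31. Against healthy, Slc5a1 under zalfermin was -0.087 (RLE), -0.081 (DESeq2), -0.055 (2 groups) and -0.057 to 0.068, and Slc2a1 was 0.0038 (upper quartile), 0.0038 (no filter) and -0.13 to 0.095.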

Other observations

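Libraries took the extremes of several of the 10 genes at once. Vehicle replicate 6 was the highest vehicle library for Slc2a1, Pck1, G6pc, Fbp1 and Pcx and the lowest for Slc5a12 and Slc2a2. Zalfermin replicate 8 was the highest of its group for Slc5a2, Slc5a12, Slc2a2, G6pc and Fbp1 and had the highest sum of proximal tubule markers in that group, 10780 CPM. Zalfermin replicate 3 was the lowest for Slc5a1, Slc5a8, Slc5a12 and Slc2a2, and replicate 6 for Slc5a2, Pck1, Fbp1 and Pcx. Healthy replicate 4 was the highest healthy library for 7 of the 10 genes.

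Other marker lists in vehicle against healthy kidneys moved as follows, where 28.6% of all genes tested were called lower and 36.2% higher. Of the last proximal segment 6 of 6 fell, and of the thick limb and collecting duct 7 of 8 fell. Of injured tubule 7 of 7, of macrophages 7 of 7 and of fibroblasts 6 of 6 rose. Of endothelium 2 of 7 rose and 1 fell, of hepatocytes 1 of 5 rose and 4 fell, of red cells 4 of 5 tested fell, and of adipocytes 0 of 6 tested was called higher and 1 lower. Under zalfermin against vehicle, 2 of 6 fibroblast markers fell, Col1a1 (746 ± 238 to 411 ± 62.3 CPM, -0.86, adjusted p = 0.00301) and Col3a1 (1178 ± 281 to 691 ± 124 CPM, -0.77, adjusted p = 0.00543), and 1 of 7 injured tubule markers rose, Krt20 (56.9 ± 9.29 to 91.7 ± 22.3 CPM, 0.69, adjusted p = 0.0108). No marker of endothelium, macrophages, thick limb and collecting duct, adipocytes, hepatocytes or red cells was called. Over all genes tested, 0.942% were called lower and 0.867% higher under zalfermin against vehicle.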
